A study of Mus musculus with 5 samples.

Results

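The genes described here are the 35 members of a module of the unfolded protein response and the integrated stress response, read in primary melanomas of mice. They were taken by symbol from the FPKM table that the authors deposited; FPKM is the number of sequenced fragments divided by transcript length and library size. All 35 were found among its 23284 genes, and all 35 were among the 12533 genes with at least 1 FPKM in at least 2 of the 5 libraries, which were the genes tested. The tumors grew from B16F1-CXCL5 cells (2 libraries), which are B16F1 mouse melanoma cells made to overexpress the chemokine CXCL5, or from B16F1 cells without that change (3 libraries). The cells of both groups were placed into flank skin, with C57BL/6 J mice as hosts, whose own cells are part of the tumor, and the tumors were taken at 250 to 350 mm3 with no treatment. The labels leave out the age of the mice, the promoter that drives CXCL5, whether the B16F1-CXCL5 cells are 1 clone and whether every library is a separate mouse. The p-values therefore measure the spread between these 5 samples, and CXCL5 cannot be told apart from other differences between the cell populations.

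Proteins that enter the secretory pathway are folded in the endoplasmic reticulum (ER), and unfolded protein there activates 3 sensors, PERK (Eif2ak3), IRE1α (Ern1) and ATF6. IRE1α splices the Xbp1 mRNA, and XBP1 and ATF6 then raise the transcription of chaperones, disulfide isomerases and components of ER-associated degradation, which returns misfolded protein to the cytosol for destruction. PERK phosphorylates the initiation factor eIF2α, as do other kinases that sense amino acid shortage, viral RNA or lack of heme. This lowers general translation but favors translation of ATF4, a transcription factor for amino acid synthesis and for regulators such as CHOP (Ddit3), and the branch shared by these kinases is called the integrated stress response. Pigment cells send large amounts of glycosylated protein through the ER to their melanosomes.

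Cxcl5 separated the groups as the labels say, with 83.7 and 85.4 FPKM in the B16F1-CXCL5 libraries and 1.86, 3.62 and 1.01 FPKM in the B16F1 libraries (log2 fold change 4.84, SE 0.33, limma adjusted p = 0.0163). The steps in the low FPKM values imply 27400000 and 28400000 fragments in the B16F1-CXCL5 libraries and between 26200000 and 28200000 in the B16F1 libraries, so depth was similar. At that depth the member with the fewest fragments, Chac1, rests on about 279 of them in its lowest library, a counting error of 6.0%. Whole tumors were sequenced, so fewer cells of a type and less RNA per cell cannot be told apart. All 10 markers of the melanocyte lineage were present in every library. Their summed level was 11370 and 12450 FPKM in the B16F1-CXCL5 libraries and 14460, 12410 and 10580 FPKM in the B16F1 libraries.

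The promoters of some members hold a match to 1 of 2 known elements in the forms searched. Their sequences are shown because the members with each match differed in how far they varied between libraries. Windows of 300 bases, from 250 before to 50 after the gene start, came from RefSeq (GRCm38.p6) and were present for 32 of the 35 members (not for Hyou1, Manf and Atf6). The ER stress response element was searched as CCAAT, any 9 bases and CCACG on either strand. It was found in 39 of 32851 windows of all genes (0.119%) and in 8 of the 32 members, 6 of them among the 9 chaperones and cochaperones with a window. The stretches below run 5′ to 3′ in the direction of the gene, with the strand of the gene given after the coordinates, and the capitals mark the match. Where the capitals begin with CGTGG the match lies on the strand opposite to the gene.
Hspa5, chr2:34772014-34772054, plus strand: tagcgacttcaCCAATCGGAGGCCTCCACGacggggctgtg
Hsp90b1, upstream match, chr10:86705627-86705667, minus strand: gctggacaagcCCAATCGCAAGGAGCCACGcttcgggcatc
Hsp90b1, downstream match, chr10:86705522-86705562, minus strand: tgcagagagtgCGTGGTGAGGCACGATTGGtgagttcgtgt
Calr, chr8:84847064-84847104, minus strand: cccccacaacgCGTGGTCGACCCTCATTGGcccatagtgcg
Canx, chr11:50325789-50325829, minus strand: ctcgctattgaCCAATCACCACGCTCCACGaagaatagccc
Dnajc3, chr14:118937816-118937856, plus strand: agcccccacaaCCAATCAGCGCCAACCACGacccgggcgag
Creld2, chr15:88819509-88819549, plus strand: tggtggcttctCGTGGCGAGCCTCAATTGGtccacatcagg
Pdia6, chr12:17266480-17266520, plus strand: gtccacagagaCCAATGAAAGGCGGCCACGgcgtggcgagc
Syvn1, chr19:6046521-6046561, plus strand: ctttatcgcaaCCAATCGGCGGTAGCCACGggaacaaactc

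The core of the C/EBP-ATF response element, which ATF4 binds together with a C/EBP factor, was searched as TGATGNAA on either strand. It was found in 1304 of the 32851 windows (3.97%) and in 4 of the 32 members. None of these 4 held the ER stress response element in the form searched, and other forms of that element were not searched. The unfolded protein response element, searched as TGACGTGG on either strand, was in 222 windows (0.676%) and in 0 of the 32 members. The other 20 members with a window held none of the 3 motifs in the forms searched, and no motif overlapped another in a member. In the stretches below the capitals mark the core, which lies on the strand of the gene in Asns and on the opposite strand in the others.
Asns, chr6:7693214-7693243, minus strand: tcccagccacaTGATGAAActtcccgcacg
Chac1, chr2:119351038-119351067, plus strand: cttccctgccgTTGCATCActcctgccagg
Herpud1, chr8:94386306-94386335, plus strand: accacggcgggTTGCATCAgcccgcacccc
Trib3, chr2:152344028-152344057, minus strand: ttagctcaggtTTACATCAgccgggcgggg

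For context, the 250 bases before the gene start are given for 1 member of each set, Hspa5 with its ER stress response element and Chac1 with its C/EBP-ATF core in capitals. Both lie on the plus strand of GRCm38.p6.
Hspa5, chr2:34771840-34772089: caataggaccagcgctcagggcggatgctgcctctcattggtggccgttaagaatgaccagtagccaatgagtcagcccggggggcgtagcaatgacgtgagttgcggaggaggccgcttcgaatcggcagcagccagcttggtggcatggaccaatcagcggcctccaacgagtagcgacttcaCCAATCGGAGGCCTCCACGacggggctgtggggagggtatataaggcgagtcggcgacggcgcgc
Chac1, chr2:119350992-119351241: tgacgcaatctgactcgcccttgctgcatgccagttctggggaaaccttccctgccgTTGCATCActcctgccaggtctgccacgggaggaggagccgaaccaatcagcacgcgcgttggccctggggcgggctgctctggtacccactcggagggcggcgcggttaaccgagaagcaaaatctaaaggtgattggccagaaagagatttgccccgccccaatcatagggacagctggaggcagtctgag
A match is a description of the letters, and no match says only that these letters are not in this window.

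**Figure D1:**
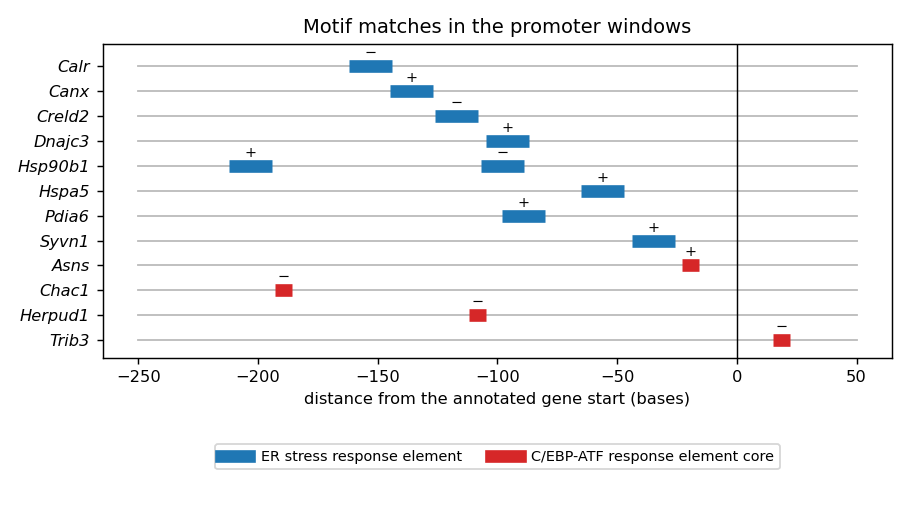
Position of the motif matches in the promoter windows of the members that hold one, with distance from the gene start in bases on the horizontal axis and 1 line per gene. The ER stress response element in the form searched is in 8 members and the C/EBP-ATF core in 4, and no member has both.

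The comparison of the tumors asks whether these stress genes differed when the melanoma cells overexpressed CXCL5. No member passed the test: 0 of 35 had a limma adjusted p under 0.05, against 17 of the 12533 genes tested (0.136%), and the members' smallest limma adjusted p was 0.263. At an unadjusted limma p under 0.05 there were 3 members (8.57%), Ppp1r15a, Ddit3 and Xbp1, against 8.97% of all genes tested. In 2 members (5.71%), Ddit3 and Ppp1r15a, both B16F1-CXCL5 libraries lay above all B16F1 libraries, which was so for 10.8% of all genes. In 5 members (14.3%), Ern1, Xbp1, Canx, Dnajc3 and Edem1, both B16F1-CXCL5 libraries lay below all B16F1 libraries, which was so for 15.6% of all genes. These shares are at or below those of all genes, and the groups overlapped in the other 28 members. The median log2 fold change of the members was -0.03, with 16 positive and 19 negative, and turned to 0.02 with every library scaled to the same sum. The median of all genes was -0.01, and 0.03 under that scaling. Of the 12533 genes tested, 5841 had a positive and 6692 a negative log2 fold change before that scaling.

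**Figure D2:**
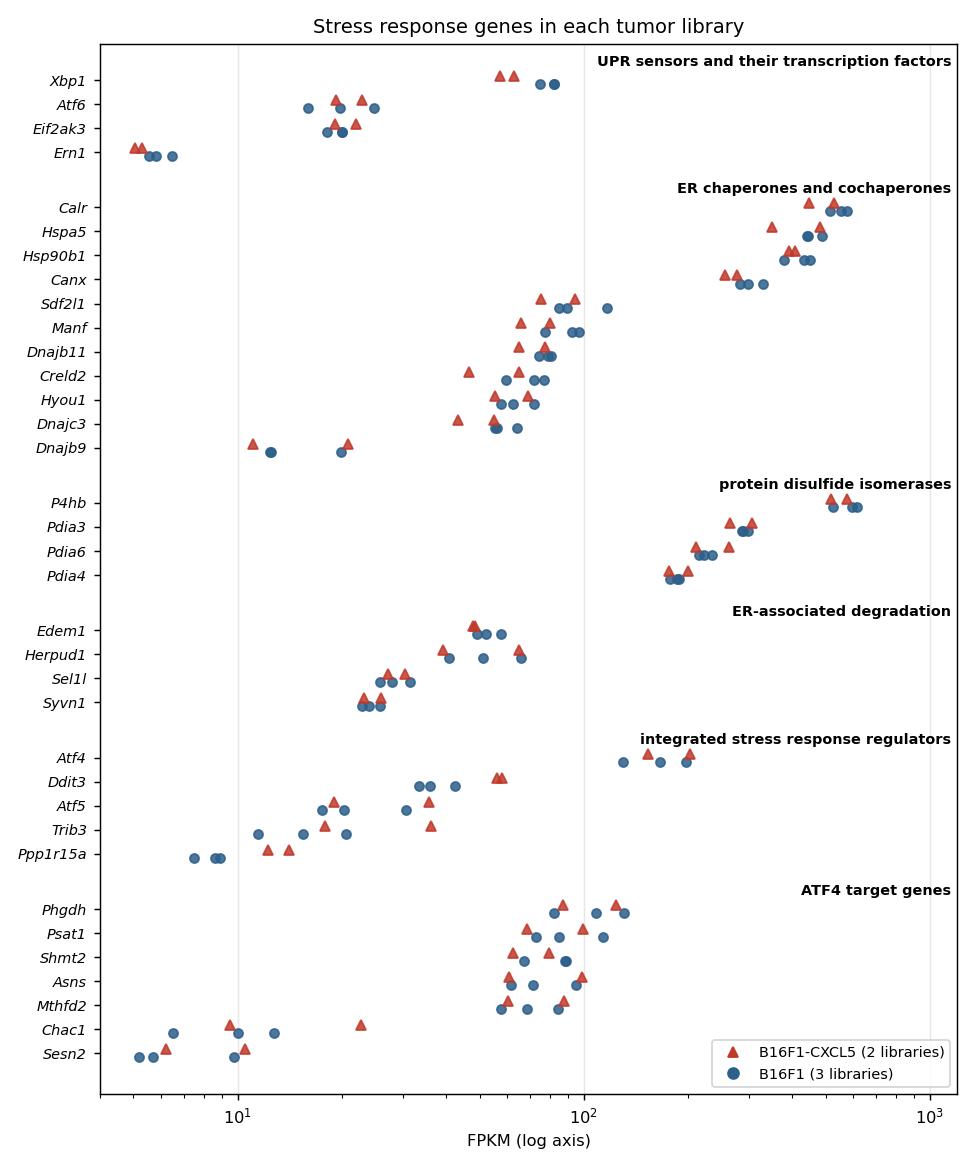
FPKM of the 35 members on a log axis, grouped by role, with 1 point per library, B16F1-CXCL5 tumors and B16F1 tumors apart. Pdia3, Pdia4, Pdia6, P4hb, Calr, Hsp90b1, Hspa5 and Canx lie between 177 and 614 FPKM, and Ern1 is the lowest on average, between 5.05 and 6.46 FPKM.

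Among the sensors and their transcription factors, Xbp1 had the largest difference in size. Xbp1 (chromosome 11, 5520659 to 5525893, plus strand, GRCm38) encodes the factor made by IRE1α splicing. It had 62.8 and 57.2 FPKM in B16F1-CXCL5 tumors, against 74.7, 81.8 and 82.0 FPKM in B16F1 tumors. The 2 groups did not overlap, and the lowest B16F1 library lay above the higher B16F1-CXCL5 library. The means were 60.0 ± 3.95 FPKM in B16F1-CXCL5 tumors (SD, n = 2) and 79.5 ± 4.15 FPKM in B16F1 tumors (SD, n = 3), which gives a ratio of 0.755. On the log2 scale the fold change was -0.40 (SE 0.08), which did not pass (limma adjusted p = 0.332), and it stayed between -0.47 and -0.33 when any 1 library was left out. FPKM values per gene do not separate spliced from unspliced Xbp1.

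The 3 sensor genes differed less. Ern1 had 5.05 and 5.29 FPKM in B16F1-CXCL5 tumors, against 6.46, 5.55 and 5.81 FPKM in B16F1 tumors (log2 fold change -0.17). Its groups did not overlap, but the higher B16F1-CXCL5 library was close to the lowest B16F1 library. Eif2ak3, which encodes PERK, had 22.0 and 19.1 FPKM in B16F1-CXCL5 tumors, against 20.0, 20.0 and 18.2 FPKM in B16F1 tumors. Atf6, whose product is cut to release a transcription factor, had 19.3 and 22.9 FPKM in B16F1-CXCL5 tumors, against 24.7, 19.8 and 16.01 FPKM in B16F1 tumors. The libraries of both groups overlapped for Eif2ak3 and Atf6, and for Atf6 the B16F1 libraries held both the highest and the lowest value.

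Of the 11 chaperones and cochaperones, 10 had a negative log2 fold change (9 with every library scaled to the same sum) and 0 passed the test. Their median was -0.17, and leaving out B16F1-CXCL5 library 1 gave -0.35, leaving out library 2 gave -0.04. Hspa5 encodes BiP, the abundant ATP-dependent chaperone of the ER that also holds the sensors inactive. It had 482 and 351 FPKM in B16F1-CXCL5 tumors, against 442, 444 and 489 FPKM in B16F1 tumors (log2 fold change -0.15, SE 0.15). The B16F1-CXCL5 libraries stood on both sides of 2 of the B16F1 libraries and differed from each other more than the B16F1 libraries did. Hsp90b1, the ER paralog of HSP90, had 407 and 391.7 FPKM in B16F1-CXCL5 tumors, against 433, 378 and 451 FPKM in B16F1 tumors. Hyou1, which exchanges the nucleotide of BiP, had 69.0 and 55.4 FPKM in B16F1-CXCL5 tumors, against 57.6, 62.6 and 71.7 FPKM in B16F1 tumors. Both genes overlapped between the groups.

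The lectin chaperones hold glycoproteins while they fold. Calr, the soluble one, had 527 and 448 FPKM in B16F1-CXCL5 tumors, against 552, 513 and 575 FPKM in B16F1 tumors. Canx, its membrane-bound relative, had 278 and 255 FPKM in B16F1-CXCL5 tumors, against 330, 282 and 299 FPKM in B16F1 tumors (log2 fold change -0.19, limma adjusted p = 0.657). Calr overlapped between the groups, while for Canx the highest B16F1-CXCL5 library was just under the lowest B16F1 library. A pseudogene named after Calr is annotated, and how Cufflinks divided shared reads was not analysed here.

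The J-domain proteins bring unfolded clients to BiP. Dnajc3, which also restrains PERK, had 54.9 and 43.3 FPKM in B16F1-CXCL5 tumors, against 56.1, 64.0 and 55.4 FPKM in B16F1 tumors (log2 fold change -0.25, SE 0.13, limma adjusted p = 0.647). Dnajb11 had 77.1 and 64.8 FPKM in B16F1-CXCL5 tumors, against 74.3, 78.9 and 80.6 FPKM in B16F1 tumors. Dnajb9, a target of XBP1 that binds IRE1α, had 20.8 and 11.1 FPKM in B16F1-CXCL5 tumors, against 12.5, 19.9 and 12.4 FPKM in B16F1 tumors. Dnajb9 was the 1 chaperone gene with a positive log2 fold change (0.06, SE 0.31), and that value rests on 1 high library in each group.

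The remaining genes of this role encode small cofactors and secreted ER proteins. Manf, a neurotrophic factor kept in the ER, had 79.8 and 65.7 FPKM in B16F1-CXCL5 tumors, against 77.4, 96.8 and 92.7 FPKM in B16F1 tumors (log2 fold change -0.29). Creld2, a calcium-binding disulfide isomerase-like protein, had 65.1 and 46.6 FPKM in B16F1-CXCL5 tumors, against 59.8, 72.0 and 76.8 FPKM in B16F1 tumors (log2 fold change -0.32, SE 0.17). Sdf2l1, a cofactor of the BiP cycle, had 94.6 and 75.0 FPKM in B16F1-CXCL5 tumors, against 84.9, 117 and 89.1 FPKM in B16F1 tumors. In all 3 genes B16F1-CXCL5 library 2 was the lowest of the 5 libraries and library 1 lay within the B16F1 range. Exons of Manf overlap those of Rbm15b on the same strand, which counting by strand would not separate, and those of Dcaf1 on the opposite strand. Exons of Pdia3, Pdia6, Syvn1 and Atf5 also overlap protein-coding genes on the opposite strand, and the strand setting of the counting is not known here.

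The disulfide isomerases form and rearrange disulfide bonds and were among the most abundant members. P4hb had 576 and 517 FPKM in B16F1-CXCL5 tumors, against 595, 523 and 614 FPKM in B16F1 tumors. Pdia3, the partner of the lectin chaperones, had 306 and 264 FPKM in B16F1-CXCL5 tumors, against 289, 287 and 298 FPKM in B16F1 tumors. Pdia6 had 262 and 211 FPKM in B16F1-CXCL5 tumors, against 215, 223 and 234 FPKM in B16F1 tumors. These genes overlapped between the groups, with B16F1-CXCL5 library 1 above library 2 in each. Pdia4 overlapped likewise, with 200 and 177 FPKM in B16F1-CXCL5 tumors, against 188, 178 and 186 FPKM in B16F1 tumors. The 4 log2 fold changes lay between -0.08 and 0.07, with 2 positive, or 3 with every library scaled to the same sum. The median coefficient of variation over the B16F1 libraries was 3.55% for this role, against 9.53% for all genes tested, and the median ratio of B16F1-CXCL5 library 1 over library 2 was 1.14, against 1.02 for all genes.

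Components of ER-associated degradation had log2 fold changes between -0.13 and 0.02, with 2 of 4 positive, or 3 of 4 with every library scaled to the same sum. Edem1, which directs mannose-trimmed glycoproteins to degradation, had 48.4 and 47.9 FPKM in B16F1-CXCL5 tumors, against 57.7, 52.2 and 49.1 FPKM in B16F1 tumors. Its groups did not overlap, but B16F1 library 3 was close to the B16F1-CXCL5 libraries (limma adjusted p = 0.735). Syvn1, the ubiquitin ligase HRD1, had 25.9 and 23.2 FPKM in B16F1-CXCL5 tumors, against 24.0, 25.8 and 22.9 FPKM in B16F1 tumors. Sel1l, the adaptor of HRD1, had 30.5 and 27.2 FPKM in B16F1-CXCL5 tumors, against 31.6, 25.8 and 27.9 FPKM in B16F1 tumors. Herpud1 is a membrane protein of the same complex and is also known as a target of ATF4. It had 65.1 and 39.2 FPKM in B16F1-CXCL5 tumors, against 40.8, 66.0 and 51.2 FPKM in B16F1 tumors. The 2 groups covered nearly the same range, with a high library in each.

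The regulators of the integrated stress response were the role with the largest median log2 fold change, 0.60, and all 5 values were positive. None passed the test, and the median was 0.20 without B16F1-CXCL5 library 1. Ddit3 (chromosome 10, 127290774 to 127296288, plus strand) encodes CHOP, a transcription factor of prolonged stress. It had 58.2 and 56.0 FPKM in B16F1-CXCL5 tumors, against 35.9, 42.5 and 33.4 FPKM in B16F1 tumors. Both B16F1-CXCL5 libraries were above every B16F1 library, and they were close to each other. The means were 57.1 ± 1.53 FPKM in B16F1-CXCL5 tumors (SD, n = 2) and 37.3 ± 4.70 FPKM in B16F1 tumors (SD, n = 3), which gives a ratio of 1.53. On the log2 scale the fold change was 0.61 (SE 0.11, limma adjusted p = 0.266) and lay between 0.54 and 0.71 when any 1 library was left out. Exons of Ddit3 overlap those of Mars on the opposite strand, which encodes methionyl-tRNA synthetase. Mars had 30.5 and 27.0 FPKM in B16F1-CXCL5 tumors, against 31.7, 36.1 and 37.0 FPKM in B16F1 tumors (log2 fold change -0.27). How reads of the overlapping exons were divided between Ddit3 and Mars was not tested.

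Ppp1r15a (chromosome 7, 45522916 to 45526268, minus strand) encodes GADD34, which directs a phosphatase to eIF2α and so ends the translational block. It had 14.1 and 12.2 FPKM in B16F1-CXCL5 tumors, against 8.63, 7.5 and 8.89 FPKM in B16F1 tumors. As for Ddit3, the groups did not overlap. Exons of Ppp1r15a overlap those of Tulp2 on the opposite strand, and the division of reads between these genes was not tested either. The means were 13.2 ± 1.33 FPKM in B16F1-CXCL5 tumors (SD, n = 2) and 8.34 ± 0.74 FPKM in B16F1 tumors (SD, n = 3), which gives a ratio of 1.58. On the log2 scale the fold change was 0.60 (SE 0.11, limma adjusted p = 0.263) and lay between 0.50 and 0.70 when any 1 library was left out. For Ddit3, Ppp1r15a, Xbp1 and Dnajc3 an exact permutation test of the group labels, two-sided, gave p = 0.1, the smallest it can give with 2 libraries against 3. The test was run on the members only, so the share of all genes that reach this value is not known here.

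The other 3 regulators varied more within the groups. Trib3 (chromosome 2, 152337422 to 152344032, minus strand) is a pseudokinase induced by ATF4 and CHOP that dampens their activity. It had 36.2 and 17.9 FPKM in B16F1-CXCL5 tumors, against 11.5, 20.6 and 15.4 FPKM in B16F1 tumors (log2 fold change 0.69, SE 0.35, limma adjusted p = 0.651). B16F1-CXCL5 library 1 was the highest and library 2 lay among the B16F1 libraries, and the log2 fold change was 0.20 without library 1. Atf5, a factor translated by the same rule as ATF4, had 35.6 and 19.0 FPKM in B16F1-CXCL5 tumors, against 17.5, 30.7 and 20.4 FPKM in B16F1 tumors. Atf4 itself had 203 and 153 FPKM in B16F1-CXCL5 tumors, against 130, 197 and 166 FPKM in B16F1 tumors (log2 fold change 0.12, SE 0.20). For both genes B16F1-CXCL5 library 1 was followed by B16F1 library 2, so the high libraries came from both groups. ATF4 is controlled mostly at translation, which mRNA levels do not show.

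**Figure D3:**
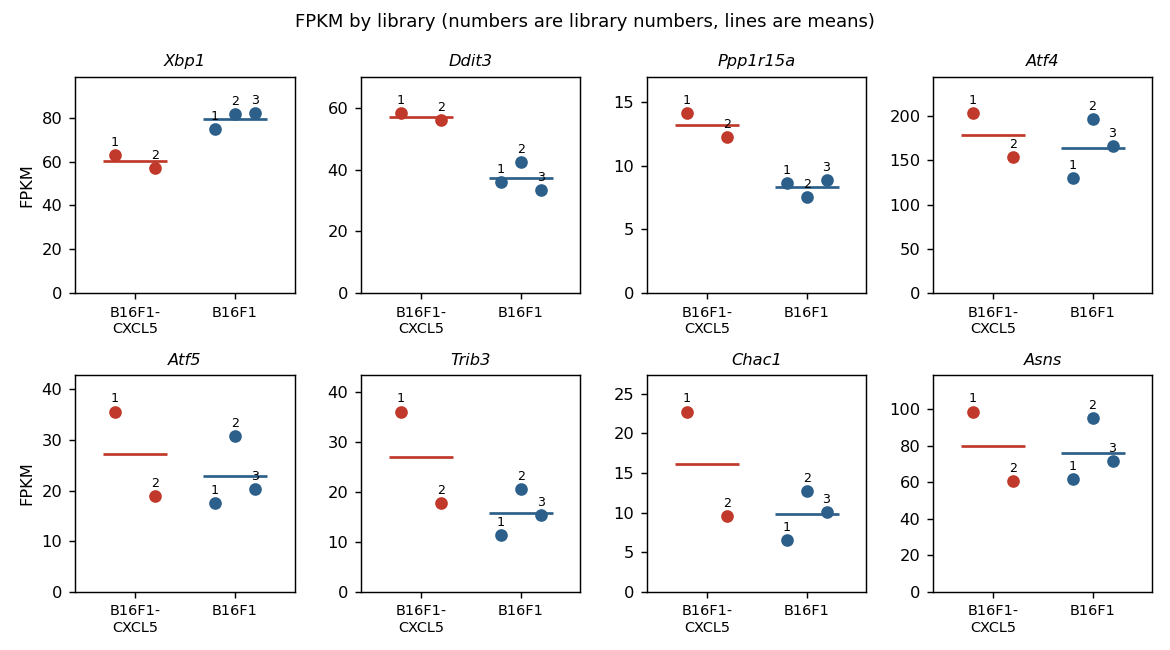
FPKM of selected members in each library, B16F1-CXCL5 tumors left of B16F1 tumors in each panel, with the group mean as a line and each axis starting at 0. Ddit3 and Ppp1r15a lie higher and Xbp1 lower in both B16F1-CXCL5 libraries, with no overlap, while Trib3 and Chac1 have 1 high B16F1-CXCL5 library and 1 within the B16F1 range.

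The 7 ATF4 target genes of the module overlapped between the groups, and their median log2 fold change was 0.05, with 4 of 7 positive, or 5 of 7 with every library scaled to the same sum. Leaving out B16F1-CXCL5 library 1 gave -0.27, leaving out library 2 gave 0.33. Chac1 (chromosome 2, 119351229 to 119354381, plus strand) encodes an enzyme that degrades glutathione. It had 22.8 and 9.51 FPKM in B16F1-CXCL5 tumors, against 6.50, 12.8 and 10.1 FPKM in B16F1 tumors (log2 fold change 0.60, SE 0.40, limma adjusted p = 0.738). B16F1-CXCL5 library 1 was the highest of the 5 and library 2 lay below 2 of the B16F1 libraries. The log2 fold change was 1.19 without B16F1-CXCL5 library 2 and 0.01 without library 1. Sesn2, which restrains mTORC1 when leucine is short, had 10.5 and 6.21 FPKM in B16F1-CXCL5 tumors, against 5.18, 9.77 and 5.71 FPKM in B16F1 tumors. Asns, which makes asparagine, had 98.8 and 60.9 FPKM in B16F1-CXCL5 tumors, against 61.7, 95.0 and 71.5 FPKM in B16F1 tumors. Both genes show the same order, with B16F1-CXCL5 library 1 highest and B16F1 library 2 next.

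The other 4 targets serve serine synthesis and mitochondrial one-carbon metabolism. Phgdh, the first enzyme of serine synthesis from glycolysis, had 124 and 87.2 FPKM in B16F1-CXCL5 tumors, against 81.9, 131 and 109 FPKM in B16F1 tumors. Psat1, the next enzyme, had 99.2 and 68.4 FPKM in B16F1-CXCL5 tumors, against 72.8, 114 and 85 FPKM in B16F1 tumors. In both, B16F1 library 2 was the highest of the 5 libraries and B16F1-CXCL5 library 1 the next. Mthfd2, which oxidizes folate-bound one-carbon units, had 87.7 and 60.5 FPKM in B16F1-CXCL5 tumors, against 57.8, 84.3 and 68.4 FPKM in B16F1 tumors. Shmt2, which splits serine to glycine, had 79.2 and 62.3 FPKM in B16F1-CXCL5 tumors, against 67.0, 88.3 and 89.0 FPKM in B16F1 tumors. Shmt2 was the 1 target whose highest B16F1 library was library 3, just above library 2. A pseudogene named after Phgdh is annotated, and exons of Shmt2 overlap another gene on the opposite strand.

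**Figure D4:**
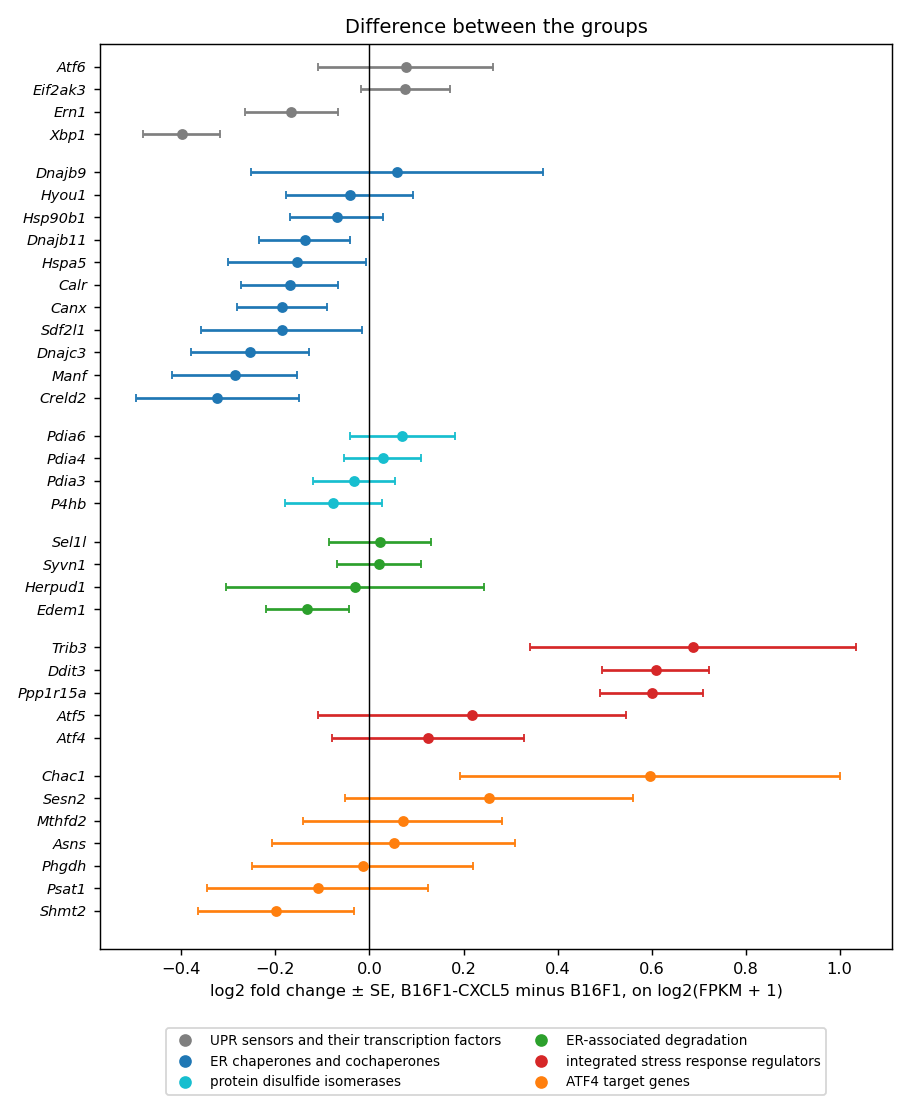
Log2 fold change (B16F1-CXCL5 minus B16F1, log2(FPKM + 1) scale) of each member, grouped by role, with bars of 1 SE. Ddit3, Ppp1r15a and Xbp1 have narrow bars away from 0, and Trib3 and Chac1 have values near those of Ddit3 with SEs of 0.35 and 0.40.

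Many members shared 1 order of the libraries within each group. This order was noticed after the values were seen and is a description without a test. B16F1-CXCL5 library 1 was above library 2 in 33 of 35 members (94.3%), against 54.6% of all genes tested. B16F1 library 2 was the highest of its group in 17 members (48.6%), against 33.5% of all genes. Both held in 17 members (48.6%), against 19.9% of all genes. With every library scaled to the same sum, the first count was 30 of 35 against 41.3% of all genes, and the second was 16 against 28.5%. With the libraries scaled to the same median ratio, they were 32 against 50% and 17 against 31.2%.

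Among the roles of the members, both parts of the order were met together most often in the ATF4 branch. B16F1-CXCL5 library 1 was above library 2 in all 7 ATF4 targets and all 5 regulators, and B16F1 library 2 was highest in 6 of the 7 targets and 4 of the 5 regulators. In the chaperones the first held for 11 of 11 and the second for 4 of 11, and in the disulfide isomerases for 4 of 4 and 0 of 4. In ER-associated degradation they held for 4 of 4 and 2 of 4. The median coefficient of variation over the B16F1 libraries was 22.8% for the ATF4 targets and 20.4% for the regulators, against 9.53% for all genes.

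The ratio of B16F1-CXCL5 library 1 over library 2 was 2.39 for Chac1, a ratio that 0.618% of 12451 genes above 0 in every library reached or passed, and 2.02 for Trib3, reached by 1.01%. It was 1.88 for Dnajb9 and Atf5, 1.70 for Sesn2, 1.66 for Herpud1 and 1.62 for Asns. These genes were also far apart between the B16F1 libraries. The ratio of B16F1 library 2 over library 1 was 1.96 for Chac1 (reached by 1.15% of genes), 1.89 for Sesn2, 1.80 for Trib3, 1.75 for Atf5, 1.62 for Herpud1, 1.59 for Dnajb9 and 1.54 for Asns. The 3 members with an unadjusted limma p under 0.05 had smaller ratios. That p is computed from the spread within the groups, so choosing members by it favors small ratios. Between the B16F1-CXCL5 libraries the ratios were 1.04 for Ddit3, 1.15 for Ppp1r15a and 1.10 for Xbp1. Between B16F1 libraries 2 and 1 the ratios were 1.18 for Ddit3, 0.87 for Ppp1r15a and 1.09 for Xbp1. Ddit3 also had B16F1-CXCL5 library 1 above library 2 and B16F1 library 2 the highest of its group, with smaller ratios than the ATF4 targets. Its lowest B16F1 library was library 3, while in the ATF4 targets the lowest was library 1.

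The size of the ratios between libraries also differed between the promoter sets shown above. The sets were put side by side after the values were seen, so this is a description without a test. B16F1-CXCL5 library 1 was above library 2 in every member of both sets. The 4 members with the C/EBP-ATF core (Asns, Chac1, Herpud1 and Trib3) had ratios of 1.62 to 2.39 between the B16F1-CXCL5 libraries and of 1.54 to 1.96 between B16F1 libraries 2 and 1. The 8 members with the ER stress response element in the form searched had ratios of 1.04 to 1.4 and of 0.85 to 1.2. The ranges of these sets did not overlap in either ratio. Between the groups the ranges overlapped. Log2 fold changes were -0.03 to 0.69 for the C/EBP-ATF set and -0.32 to 0.07 for the ER stress response element set. The ratios of genes outside the module that hold these motifs were not looked at. Sesn2, Atf5, Dnajb9, Psat1, Phgdh and Mthfd2 had ratios of at least 1.4 in both comparisons without the core in their window.

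**Figure D5:**
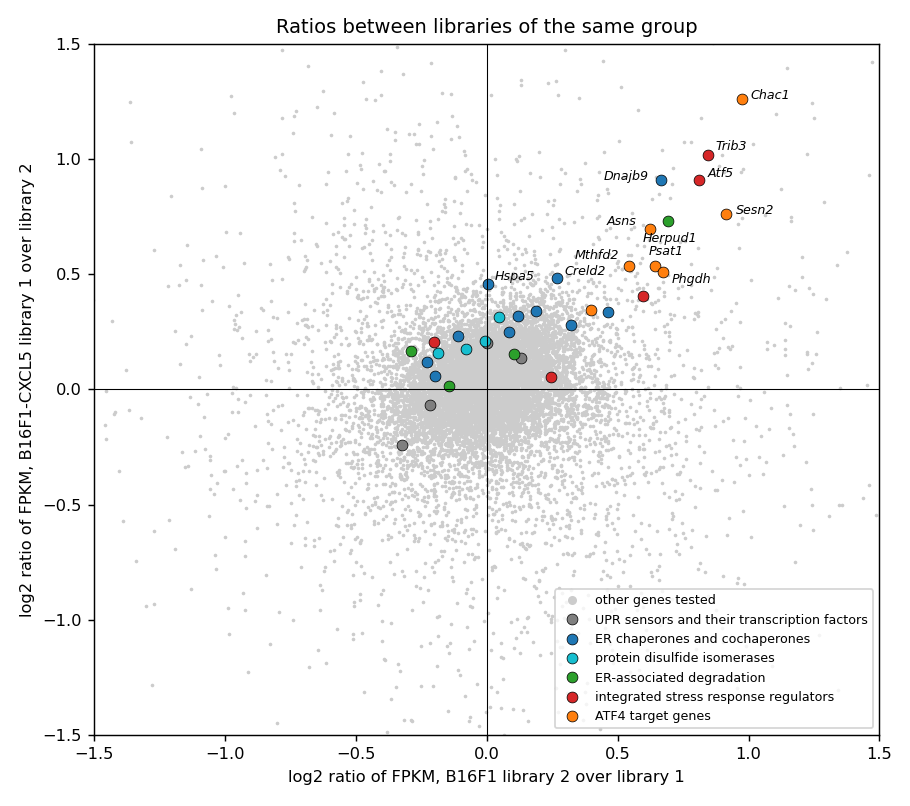
Log2 ratio of B16F1-CXCL5 library 1 over library 2 against log2 ratio of B16F1 library 2 over library 1, with members colored by role over the other genes tested; 162 of 12451 genes lie outside the axes, none of them a member. Chac1, Trib3, Atf5, Sesn2, Dnajb9, Herpud1 and Asns lie at the upper right, and most chaperones and disulfide isomerases lie nearer the vertical line.

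Markers of other cells also differed between these libraries, and their part in the members' order was not tested. All 9 skeletal muscle markers listed were found. Their summed level was 563.5 and 1428 FPKM in B16F1-CXCL5 libraries 1 and 2 and 630.3, 632.5 and 1908 FPKM in B16F1 libraries 1, 2 and 3. The 9 keratinocyte markers summed to 446.1 and 589.1 FPKM in the B16F1-CXCL5 libraries and 391.0, 390.4 and 1060 FPKM in the B16F1 libraries. In both lists B16F1 library 3 had the highest sum. The 9 macrophage markers found of 10 listed summed to 606.4 and 386.7 FPKM in the B16F1-CXCL5 libraries and 480.3, 356.5 and 544.3 FPKM in the B16F1 libraries. For macrophages B16F1-CXCL5 library 1 had the highest sum and B16F1 library 2 the lowest. None of these 3 lists had a marker at 0 in any library.

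Neutrophil markers moved with the group. Of 12 listed, 11 were found and 8 tested, all 8 with positive log2 fold changes and 5 called higher by limma. Their summed level was 766.7 and 822.0 FPKM in the B16F1-CXCL5 libraries and between 16.1 and 44.8 FPKM in the B16F1 libraries, and Camp, Ngp and Ltf, granule genes of developing neutrophils, were at 0 in some library. Fibroblast markers (9 of 9 found) summed to 1634 and 1868 FPKM in B16F1-CXCL5 tumors and 1151, 954.6 and 1905 FPKM in B16F1 tumors. The 8 endothelial markers summed to 66.9 and 59.8 FPKM in B16F1-CXCL5 tumors and between 54.7 and 68.7 FPKM in B16F1 tumors. Plasma cells and B cells, which use the unfolded protein response heavily, gave sums of 30.9 and 26.0 FPKM in B16F1-CXCL5 tumors and between 27.6 and 41.6 FPKM in B16F1 tumors. Of the 10 such markers found among 12 listed, 7 were under 1 FPKM in every library, and Igj was at 0 in both B16F1-CXCL5 libraries. The part of these cells in the values of Ddit3, Ppp1r15a and Xbp1 was not tested.

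Of 156 further genes of these pathways, in 8 lists, 149 were tested and 0 passed (limma adjusted p). There were 64 positive and 85 negative log2 fold changes, against 5841 positive and 6692 negative over all genes tested. An unadjusted limma p under 0.05 was reached by 15, against 8.97% of all genes. The list of other transcription factors and stress targets of the integrated stress response had 14 of 17 positive values and a median of 0.42, and the groups lay apart with B16F1-CXCL5 higher in 8, against 10.8% of all genes. Atf3, a stress-induced repressor, had 13.2 and 12.5 FPKM in B16F1-CXCL5 tumors, against 8.01, 6.55 and 8.91 FPKM in B16F1 tumors (log2 fold change 0.66, SE 0.13, limma adjusted p = 0.313). Bbc3, which encodes the pro-apoptotic protein PUMA, had 5.02 and 5.04 FPKM in B16F1-CXCL5 tumors, against 3.53, 3.50 and 3.50 FPKM in B16F1 tumors (log2 fold change 0.42). Tnfrsf10b, a death receptor known as a CHOP target in human cells, had 4.44 and 4.02 FPKM in B16F1-CXCL5 tumors, against 6.08, 7.38 and 6.26 FPKM in B16F1 tumors (log2 fold change -0.53). The groups of these 3 genes did not overlap, as in Ddit3 and Ppp1r15a, and Tnfrsf10b had the opposite sign to Ddit3.

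The aminoacyl-tRNA synthetases, which load tRNAs and include ATF4 targets, had 15 of 20 negative values and a median of -0.12, or 11 of 20 and -0.07 with every library scaled to the same sum. Both B16F1-CXCL5 libraries lay below all B16F1 libraries in 8 of them, against 15.6% of all genes. Rars, for arginine, had 61.0 and 50.6 FPKM in B16F1-CXCL5 tumors, against 73.5, 68.2 and 72.7 FPKM in B16F1 tumors (log2 fold change -0.36, SE 0.10, limma adjusted p = 0.434). Kars, for lysine, had 109 and 91.1 FPKM in B16F1-CXCL5 tumors, against 113, 123 and 128 FPKM in B16F1 tumors. Both genes, like Mars, were lower in each B16F1-CXCL5 library. The subunits of eIF2 and eIF2B and the eIF2 kinases had 11 of 15 negative values with a median of -0.09, or 9 of 15 and -0.04 under that scaling. Eif2b3, Eif2b1 and Eif2b5, subunits of the exchange factor that phosphorylated eIF2α inhibits, had log2 fold changes of -0.22, -0.19 and -0.15.

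Other genes of ER folding, translocation and secretion had 24 of 38 negative values and a median of -0.07, or 20 of 38 and -0.02 with every library scaled to the same sum. Spcs1, a subunit of signal peptidase, had 119 and 111 FPKM in B16F1-CXCL5 tumors, against 125, 161 and 134 FPKM in B16F1 tumors. Other genes of ER-associated degradation had 14 of 17 negative values and a median of -0.05, or 11 of 17 under that scaling. Derl2, a channel-like protein of that pathway, had 15.0 and 13.04 FPKM in B16F1-CXCL5 tumors, against 18.3, 18.4 and 16.7 FPKM in B16F1 tumors (log2 fold change -0.33, limma adjusted p = 0.446). Neither gene overlapped between the groups. Other signalling genes of the unfolded protein response had 10 of 16 positive values and a median of 0.02. The smallest p among them belonged to Dnajc1, a J-domain protein of the ER membrane, with 14.8 and 15.1 FPKM in B16F1-CXCL5 tumors, against 20.5, 19.8 and 17.7 FPKM in B16F1 tumors (log2 fold change -0.35). Amino acid transport genes had 6 of 10 positive values with a median of 0.02, or 8 of 10 under that scaling. Other serine, proline and one-carbon genes had 8 of 16 with a median near 0, or 10 of 16 under that scaling.

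The order of the libraries varied among these lists. B16F1-CXCL5 library 1 was above library 2 in 37 of 38 other ER folding genes (97.4%), 19 of 20 aminoacyl-tRNA synthetases (95.0%), 15 of 15 genes of the eIF2 list and 9 of 10 amino acid transport genes, against 54.6% of all genes. In the other signalling genes it was above in 9 of 16 (56.2%), and B16F1 library 2 was the highest of its group in 3 of 16 (18.8%). The same counts were 13 of 17 and 9 of 17 in the other transcription factors and stress targets of the integrated stress response. They were 13 of 16 and 10 of 16 in the other serine, proline and one-carbon genes. In the other genes of ER-associated degradation they were 15 of 17 and 10 of 17. B16F1 library 2 was the highest of its group in 20 of 38 (52.6%) ER folding genes, 10 of 20 (50%) synthetases, 4 of 15 (26.7%) genes of the eIF2 list and 6 of 10 transport genes, against 33.5% of all genes.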

How the data were processed

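RNA was sequenced from 2 B16F1-CXCL5 and 3 B16F1 tumors, from poly(A) RNA with a median integrity number of 9.4 (lowest 8.7, highest 9.5), in a strand-marking TruSeq library on a HiSeq2000, per the labels' protocols. The authors deposited FPKM values for 23284 genes. The submitters' processing notes name Cufflinks 2.2.1, TopHat2 2.0.10, SAMtools 0.1.1.9, Bowtie 1.0.0, FastQC 0.10.1 and the build GRCm38 (mm10). The sources used here do not give the gene annotation, the strand setting of the counting or a scaling between libraries. Genes with overlapping exons or near-identical copies are therefore uncertain.

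Log2(FPKM + 1) was tested with limma 3.58.1 (R 4.3.3), with an intensity trend, over all genes with at least 1 FPKM in at least 2 libraries, and p-values were adjusted by Benjamini-Hochberg over all 12533 of them, with a threshold of 0.05. Log2 fold changes subtract the B16F1 mean from the B16F1-CXCL5 mean on that scale and understate changes of low genes. Ratios are of mean FPKM. The script was tested on simulated data. Counts were not used. Depth was estimated from the steps in the FPKM values of 3063 genes with an assumed fragment length of 200 nt, and its counting errors cover counting only.

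All members are named; of each list of other pathway genes the 3 with the smallest p could be named, and other genes are said to be chosen after their values were seen. The members and lists were chosen with earlier results of these data known. Coordinates of genes are from GENCODE M21, and promoters from the RefSeq table (GRCm38.p6). Alternatives changed the pseudocount, filter, trend, weights, scaling, replicate block and the libraries kept.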

Additional observations from a re-analysis of the deposited data

How the results depend on the processing

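In 8 alternatives all libraries added to the difference, 1 used a replicate block and 5 left out 1 library each. No member and no other pathway gene was called by limma in any of them, and the smallest limma adjusted p of a member was 0.172. Of all genes tested, limma called 17, against 8 with a pseudocount of 0.1, 7 with a mean of at least 3 FPKM, 39 without the trend, 31 with library weights and 46 with a replicate block. Without 1 library the count lay between 2 and 34. It was 2 without B16F1-CXCL5 replicate 2, 3 without B16F1-CXCL5 replicate 1, 11 without B16F1 replicate 2 and 34 without B16F1 replicate 3. The cause was not tested.

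With all libraries adding to the difference, 5 members turned sign in some setting. With library weights Dnajb9 had a log2 fold change of -0.00395. With the same sum per library Herpud1 had 0.0172, Hyou1 0.00628, Pdia3 0.0154 and Phgdh 0.0342, and with the same median ratio Phgdh had 0.00279. With the replicate block Atf6 had -0.0711, Dnajb9 -0.0495, Hyou1 0.0423, Phgdh 0.00917 and Syvn1 -0.0176. Whether the same replicate number pairs the samples is not known here. Correlations of same-numbered deviations were -0.03 and -0.02 over only 2 pairs. They cannot settle it, because with 2 B16F1-CXCL5 libraries the deviations of 1 mirror those of the other. The block values are therefore not read as an effect. B16F1 library 3 is alone in its block, so the block gives the same log2 fold changes as leaving that library out.

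Leaving out 1 library turned the sign of 19 members, whose log2 fold changes ranged as follows over these settings. Eif2ak3 ranged over -0.0196 to 0.172, Atf6 -0.0711 to 0.228, Hspa5 -0.383 to 0.0756, Dnajb9 -0.37 to 0.49, Hyou1 -0.20 to 0.11, P4hb -0.16 to 0.00111, Pdia3 -0.139 to 0.0722 and Pdia4 -0.0599 to 0.116. Pdia6 ranged over -0.0877 to 0.227, Herpud1 -0.39 to 0.33, Syvn1 -0.0542 to 0.0949, Sel1l -0.0577 to 0.103, Atf4 -0.0772 to 0.326, Atf5 -0.22 to 0.66 and Asns -0.29 to 0.40. Sesn2 ranged over -0.0842 to 0.593, Psat1 -0.38 to 0.16, Phgdh -0.27 to 0.24 and Mthfd2 -0.19 to 0.33. In all settings 16 members, Ddit3, Ppp1r15a, Xbp1, Trib3 and Chac1 among them, kept their sign. The median of all members ranged from -0.19 to 0.10 without 1 library. With B16F1-CXCL5 reduced to 1 library, that library is assumed to vary like the others. How far the number of libraries or the depth limits the precision was not tested.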

Other observations

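Of the 12451 genes above 0 in every library, 118 (0.948%) had a ratio of at least 1.4 both for B16F1-CXCL5 library 1 over library 2 and for B16F1 library 2 over library 1. They held 10 of the 35 members and 10 of the other pathway genes. The remaining 98 were of many kinds, and 4 of them are named here, chosen after their values were seen. Il6, a cytokine, had 3.03 and 0.27 FPKM in B16F1-CXCL5 tumors and 0.42, 1.93 and 0.64 FPKM in B16F1 tumors. Cxcl1, another ligand of CXCR2, had 4.36 and 0.45 FPKM in B16F1-CXCL5 tumors and 1.32, 3.74 and 0.59 FPKM in B16F1 tumors. Tnfaip6, which modifies hyaluronan, had 9.002 and 2.23 FPKM in B16F1-CXCL5 tumors and 2.58, 7.26 and 4.003 FPKM in B16F1 tumors. In Il6, Cxcl1 and Tnfaip6 B16F1-CXCL5 library 1 was the highest of the 5 and B16F1 library 2 the next, the order also seen in Asns, Sesn2 and Chac1. Krt16, a keratin of activated keratinocytes, had 34.1 and 1.23 FPKM in B16F1-CXCL5 tumors and 7.27, 21.96 and 76.1 FPKM in B16F1 tumors, with B16F1 library 3 the highest. Slc7a11, the cystine transporter subunit and a known ATF4 target, also chosen after its values were seen, had 2.55 and 1.13 FPKM in B16F1-CXCL5 tumors and 0.75, 1.79 and 0.66 FPKM in B16F1 tumors.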
